A study of Homo sapiens with 27 samples.

Results

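The 377 RNA 3′ ends described here lie on chromosome 22 and were listed in all 12 cytosol libraries of A549 and A549R, out of 16902 such ends on all chromosomes. They were found by merging the deposited peaks of the 12 libraries that overlapped by at least 1 base on the same strand, which gave 175710 merged peaks, 3069 of them on chromosome 22, and keeping those listed in every library. The chromosome was chosen by its measured difference between A549R and A549 in DMSO and in cisplatin, so that difference is described below without a test and supports no other statement. Of the 377 ends, 190 lay on the plus strand and 187 on the minus strand, between 16886258 and 51237074 (hg19), and they fell into 276 loci when ends within 10 kb on a strand were joined.

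A549 and H358 are human cell lines of non-small cell lung cancer, and A549R was read as the cisplatin-resistant counterpart of A549, since the design text sets resistant against sensitive cells. The labels do not say how A549R was derived or whether it is 1 clone. The cytosol libraries form 4 groups of 3: A549 with the vehicle DMSO, A549 with 100 µM cisplatin, A549R with DMSO and A549R with 100 µM cisplatin. The other 15 libraries are 3 each of A549 heavy polysomes (the RNA that carries many ribosomes) with DMSO or 100 µM cisplatin, and of whole H358 cells with DMSO, 100 µM cisplatin or 100 µM oxaliplatin. All cells grew in the same medium, no time of exposure was used here, and nothing says that replicates were separate cultures, so p-values below measure the spread between these samples, which may be technical.

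Sequencing from the poly(A) tail counts where a messenger RNA ends, and 1 gene can give several ends when cleavage and polyadenylation occur at different sites, including sites in introns. Chromosome 22 is an acrocentric chromosome: nearly all of its genes lie on the long arm, with ribosomal DNA on the short arm. Cancer cell lines often differ in the number of copies of whole chromosomes or arms, and the RNA of the genes there tends to follow copy number in part. Copy number was not measured in these libraries. Ends are named by position and strand, because no annotation or genome of this build was used.

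The cytosol libraries held 3024814 to 7564772 counts each, and the shallowest was A549R DMSO replicate 3. Levels are normalised read counts in CPM, brought to the same library total over the 16902 ends. In the cytosol libraries they were also scaled so that most ends are taken as equal between libraries. Polysome and H358 levels had no such scaling, so their CPM compare only roughly with each other and with cytosol. The deposited lists were of 2 kinds: the A549 cytosol lists held 31.6% to 35.2% of their own peak numbers and the A549R cytosol lists 76.0% to 77.5%. In cytosol the kind of list and the line cannot be told apart. The lowest count listed was 5, so membership depended on a minimum count. Among the members 29 had a lowest count of 5, and 94 further chromosome 22 ends were listed in 11 libraries, 38 of them missing from an A549 list and 56 from an A549R list. Another count was less even: 436 chromosome 22 ends were listed in all 6 A549R libraries but not in all 6 of A549, 356 of them in 0 A549 libraries. The reverse held for 80 ends, 5 of them in 0 A549R libraries.

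The chromosome 22 ends stood higher in A549R than in A549 along nearly the whole measured arm. Their median difference was 0.45 on the log2 scale in DMSO (1.36-fold) with quartiles of 0.18 and 0.74, and 0.47 in cisplatin (1.38-fold) with quartiles of 0.18 and 0.73. The other ends had medians of -0.02 and -0.00. In DMSO 84.6% of the members lay above 0, and in cisplatin 86.2%.

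The shift was present in each library. Taken as the median of the members minus that of all other ends, relative to A549 DMSO, it was -0.03, 0.01 and 0.04 in the A549 DMSO libraries and -0.02, 0.04 and 0.11 in the A549 cisplatin libraries. It was 0.43, 0.51 and 0.39 in A549R with DMSO, and 0.49, 0.61 and 0.46 in A549R with cisplatin. No A549R library overlapped an A549 library. The members took 1.72% to 1.88% of the counts outside the mitochondrial genome in the 6 A549 libraries and 2.44% to 2.61% in the 6 A549R libraries.

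**Figure D1:**
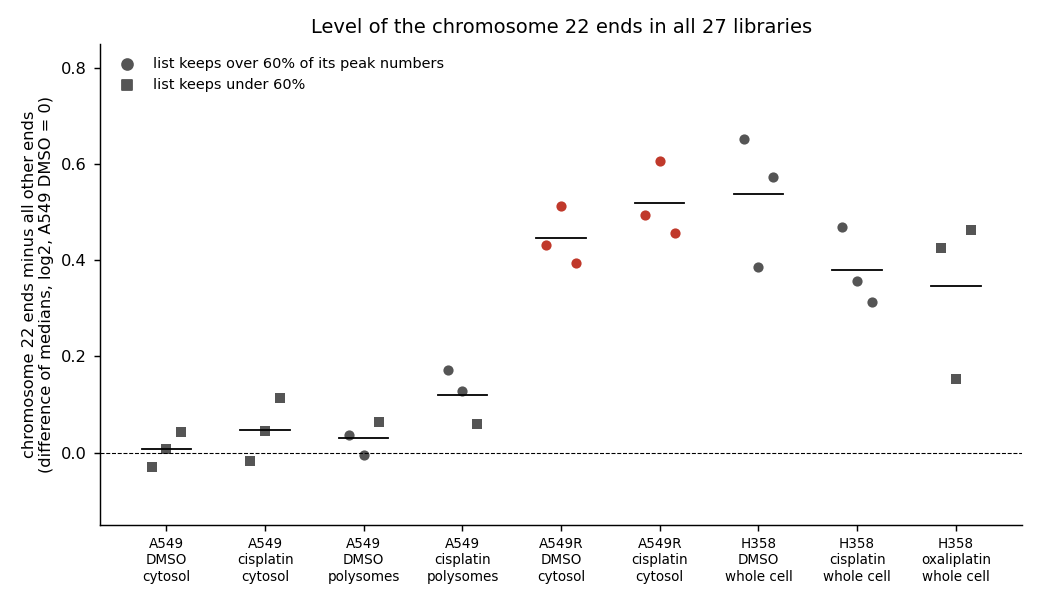
Level of the chromosome 22 ends in all 27 libraries, as the median log2 level of the members minus that of all other ends, with A549 cytosol DMSO as 0. Points are libraries, bars are group means, circles mark lists that keep over 60% of their peak numbers and squares those under 60%. The A549R libraries sit between 0.39 and 0.61, the A549 cytosol and polysome libraries between -0.03 and 0.17.

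The A549 polysome libraries set the 2 kinds of list beside each other within 1 line, with libraries 1 and 2 on long lists and library 3 on short ones. The kind of list and the replicate number cannot be told apart there. The members' level there was -0.01 to 0.17 in the 4 long lists and 0.06 in both short lists, beside 0.39 to 0.61 in the A549R cytosol libraries. Over the 334 members listed in all 6 polysome libraries, the long lists differed from the short ones by a median of 0.01 (quartiles -0.38 and 0.39). Across these 334 members that difference had a Pearson correlation of -0.01 with the line difference; the values share A549 cells but no library. Members missing from a short list are not among the 334, and the part of the kind of list in the line shift was not tested. A549R polysomes are not analysed here. In whole H358 cells the same measure ranged from 0.15 to 0.65, but line and extract both differ from the A549 cytosol.

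Member by member, 297 of 377 (78.8%) were above 0 in both treatments, where 34.8% of all ends were. Below 0 in both were 30 members in 29 loci (7.96%), where 35.4% of all ends were. Another 22 were above 0 in DMSO alone and 28 in cisplatin alone. Most differences were small: 115 members exceeded 0.5 in both treatments, 14 exceeded 1 and 3 exceeded 2. Of all 16902 ends, 1084, 194 and 34 did. On the other side of 0, the same sizes were passed in both treatments by 4, 2 and 1 members and by 971, 151 and 13 of all ends.

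Libraries of the lines did not overlap, with A549R higher, for 140 members (37.1%) in DMSO and 150 (39.8%) in cisplatin, against 9.71% and 9.02% of all ends. Without A549R DMSO replicate 3 the first count was 213. With A549R lower there were 4 members in DMSO (1.06%) and 7 in cisplatin (1.86%), against 11.7% and 9.08% of all ends. These counts became 13 without A549R DMSO replicate 3 and 16 without A549R cisplatin replicate 3. Counts without overlap tend to rise when a library is left out, since fewer values must be separated. The share of all ends was not counted with a library left out. In both treatments together 89 members (23.6%) were higher without overlap and 2 (0.531%) lower, against 3.38% and 4.11% of all ends. These shares restate the difference that chose the chromosome.

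The shift was present at each level and on both strands. Members split into low, middle and high mean level (126, 125 and 126 ends) had medians of 0.40, 0.45 and 0.49 in DMSO and 0.33, 0.48 and 0.50 in cisplatin. Those on the plus strand had 0.46 and 0.46, and those on the minus strand 0.44 and 0.47. The most abundant member, 24236939 plus, averaged 2236 CPM in A549 and 3268 CPM in A549R with DMSO, a log2 difference of 0.55, and 0.59 in cisplatin. It was named for its level after its values were seen.

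Ends of the same locus mostly lay on the same side of 0. In the 67 loci with more than 1 member, which held 168 members, 9 held members on both sides of 0 by the mean of the treatments, and 228 of the 276 loci had medians above 0 in both treatments. The DMSO and cisplatin differences share no library, and across the 377 members they had a Pearson correlation of 0.76 and a Spearman correlation of 0.58, against 0.67 and 0.58 over all 16902 ends.

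In windows of 5 Mb the shift had no gap. The DMSO medians ran from 0.31 (35 to 40 Mb, 83 members) to 0.60 (50 to 55 Mb, 28 members). The cisplatin medians ran from 0.27 (15 to 20 Mb, 30 members) to 0.63 (50 to 55 Mb). In windows of 2 Mb the lowest DMSO median of a window with 5 or more members was 0.23, at 38 to 40 Mb with 57 members, and cisplatin gave 0.48 there.

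Window by window, the 6 A549R libraries stayed above all 6 A549 libraries in 6 of the 8 windows of 5 Mb. From 20 to 25 Mb, for example, the A549R medians lay between 0.30 and 0.62 and those of A549 between -0.04 and 0.08. The libraries overlapped from 15 to 20 Mb, in each treatment, where A549R ranged from -0.06 to 0.85 and A549 from -0.07 to 0.36. From 25 to 30 Mb they overlapped only with the treatments pooled, A549R from -0.04 to 0.46 and A549 from -0.40 to 0.07. Within a treatment the lines were apart there. In DMSO A549 had -0.01 to 0.07 and A549R 0.39 to 0.46. In cisplatin A549 had -0.40 to -0.06 and A549R -0.04 to 0.30.

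**Figure D2:**
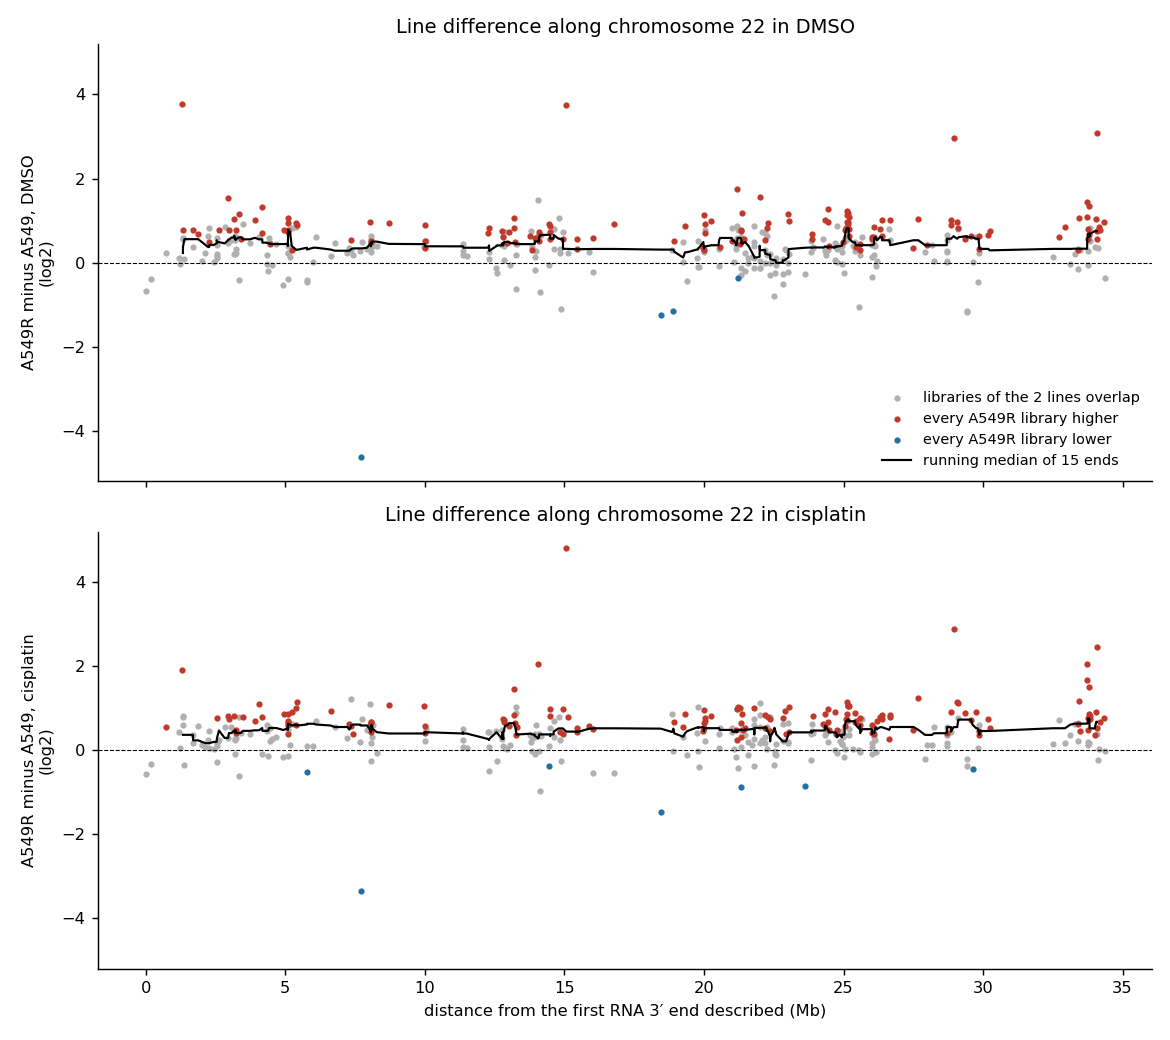
Line difference (A549R minus A549, log2) of each of the 377 ends against its distance in Mb from the first end, with DMSO above and cisplatin below. Colours mark ends whose libraries do not overlap between the lines, and the black line is the running median of 15 ends. The running median stays above 0 in all 363 windows in cisplatin and in all but 3 in DMSO.

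The running median of 15 neighbouring members followed the arm at finer scale. In DMSO it was at or below 0 in 3 of 363 windows and in cisplatin in 0. The lowest DMSO value, -0.00, fell on the members starting from 39257405 to 39911886, where cisplatin gave 0.38. The lowest cisplatin value, 0.16, fell on those starting from 18217796 to 19428852, where DMSO gave 0.37. The highest values were 0.82 in DMSO, from 41911963 to 42093952, and 0.75 in cisplatin, from 50320902 to 50941293.

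No inner edge of the shift was found. On the centromeric side the single step that best fitted the mean of both treatments came after the second member, between 17075995 and 17618400, and lowered the sum of squares by 1.57%. The 2 members outside it had a median of -0.49 and those inside 0.45. On the telomeric side the best step lay between 50296823 and 50320902 and lowered the sum by 2.13%: the 23 members beyond it stood higher, at a median of 0.64 against 0.44. By least absolute deviations, an alternative chosen after seeing the data, that step moved to between 41921800 and 41924566, with 101 members beyond it at 0.55.

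The ends at the rim of the map were few. The first, 16886258 plus, had 5.00, 3.26 and 3.09 CPM in A549 DMSO, 2.90, 1.21 and 3.81 in A549R DMSO, 3.09, 3.71 and 3.92 in A549 cisplatin and 1.83, 2.43 and 3.09 in A549R cisplatin. The second, 17075995 minus, had differences of -0.39 and -0.34, and the third, 17618400 minus, 0.23 and 0.56. The libraries of the first and second overlapped in both treatments, so this rim rests on 2 ends whose lines were not separated.

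At the far end, 51205918 minus had 6.52, 7.75 and 7.56 CPM in A549 DMSO and 15.4, 15.8 and 10.8 in A549R DMSO. With cisplatin it had 6.73, 9.06 and 9.47 in A549 and 12.4, 13.0 and 17.6 in A549R. Every A549R library was above every A549 library, and the differences were 0.97 and 0.76. The last member, 51237074 plus, overlapped between the lines, with differences of -0.36 and -0.03.

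Chromosome 22 had the highest median of the 24 chromosomes in both treatments. Among chromosomes with 100 or more ends, the next were chromosome 6, with 708 ends and medians of 0.32 in both, and chromosome 9, with 680 ends and 0.27 and 0.31. Their maps were less even: the running median was above 0 in 99.2% of the chromosome 22 windows in DMSO, 95.4% on chromosome 6 and 76.4% on chromosome 9, and the lowest DMSO window was -0.31 on chromosome 6 and -1.09 on chromosome 9.

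The libraries set the 3 chromosomes apart. The chromosome 6 median was 0.45, 0.44 and -0.01 in the 3 A549R DMSO libraries and 0.41, 0.46 and -0.03 in the 3 A549R cisplatin libraries, so both libraries numbered 3 stood with A549. Chromosome 22 kept its shift in those libraries, at 0.39 and 0.45, and chromosome 9 stood at 0.25 and 0.28. In A549R libraries 1 and 2 chromosome 22 stood at 0.42 and 0.50 with DMSO and at 0.47 and 0.59 with cisplatin. Chromosome 6 was thus near it in these libraries, and above it in A549R DMSO replicate 1. Without A549R DMSO replicate 3 the chromosome 22 median was 0.45 in DMSO, and without A549R cisplatin replicate 3 it was 0.46 in cisplatin.

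**Figure D3:**
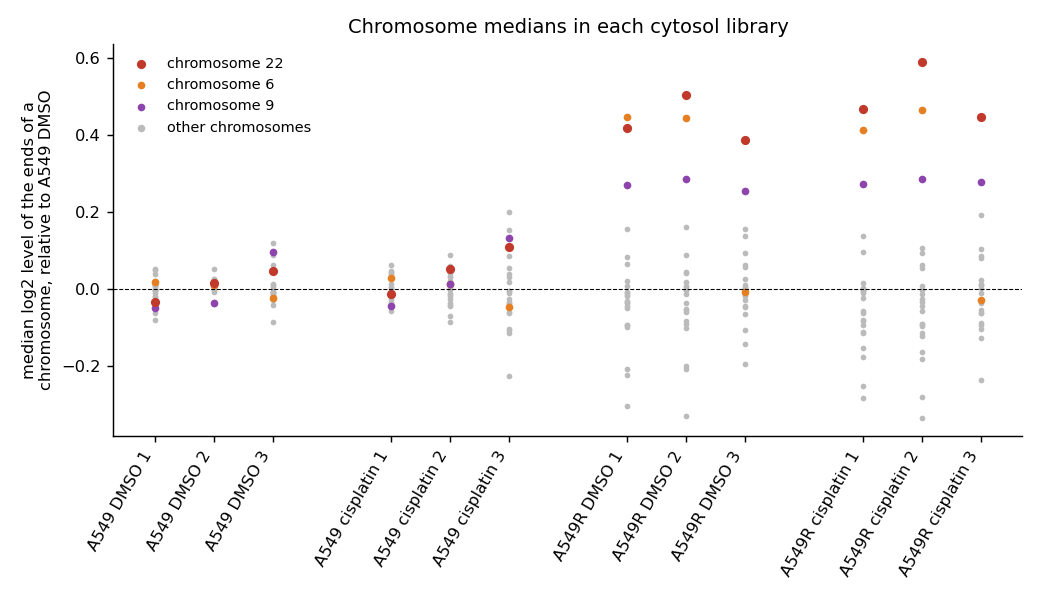
Median log2 level of the ends of each chromosome with 100 or more ends, relative to A549 DMSO, in each of the 12 cytosol libraries. Chromosome 22 is high in all 6 A549R libraries (0.39 to 0.59), while chromosome 6 is high in libraries 1 and 2 of A549R and near 0 in library 3 of both treatments.

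A few ends stood far above the rest of the arm. The highest, at chr22:31955616-31955985 on the plus strand, had 3.26, 4.08 and 2.41 CPM in A549 DMSO, 2.24, 1.65 and 2.29 in A549 cisplatin, 46.0, 50.2 and 37.5 in A549R DMSO and 57.4, 70.7 and 43.6 in A549R cisplatin. The lines were far apart in all libraries, with log2 differences of 3.74 in DMSO (13.4-fold) and 4.80 in cisplatin (27.9-fold). The kind of list moved with this end: in A549 polysomes it had 11.7 to 16.9 CPM in the long lists and 0 and 1.05 CPM in the short ones, a log2 difference of 3.76 with a pseudocount of 0.5. The part of the kind of list in its line difference was not tested.

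The second, 45828084 plus, had 1.09, 1.63 and 3.44 CPM in A549 DMSO and 14.7, 15 and 15.9 in A549R DMSO. In cisplatin it had 3.09, 1.65 and 3.27 in A549 and 21.7, 16.2 and 19.8 in A549R, so no libraries overlapped and the differences were 2.97 and 2.88. Long and short polysome lists had means of 5.02 and 5.70 CPM for it, both below its A549R cytosol level. The part of the kind of list in its line difference was not tested.

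For 50964124 minus the A549 libraries held 12.2 to 17.2 CPM with DMSO and 14.0 to 23.5 with cisplatin, against 110 to 145 and 86.2 to 104 in A549R. The groups did not overlap and the differences were 3.08 and 2.45. In A549 polysomes its short lists (19.5 and 19.6 CPM) stood above its long lists (6.09 to 10.5 CPM), a log2 difference of -1.18 with a pseudocount of 0.5. The part of the kind of list in its line difference was not tested.

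The end at 18187401 plus had 3.26, 2.04 and 2.75 CPM in A549 DMSO and 42.4, 39.3 and 27.9 in A549R DMSO, a difference of 3.78. In A549R with cisplatin it had 10.3, 40.2 and 6.49 CPM, so the libraries of that group were far apart, and the difference was 1.91. In A549 polysomes it had 4.24, 0, 1.06 and 20.8 CPM in the long lists and 0 and 1.26 CPM in the short ones, so a single long list stood far above the others. Of the 14 members above 1 in both treatments, 4 were more than 1 log2 unit higher in the long than in the short polysome lists. Another 2 were more than 1 lower, and the median of the 14 was 0.18. Of the 334 members listed in all 6 polysome libraries, 17 were more than 1 higher and 15 more than 1 lower. The large line differences thus went with a difference between the kinds of list more often than those of the 334, and this was not tested.

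The other ends among the 8 highest were 30950612 minus (1.48 in DMSO and 2.05 in cisplatin), 50613767 plus (1.1 and 2.04), 50618517 plus (1.43 and 1.67) and 38051847 plus (1.76 and 0.97). Libraries of the lines were apart in both treatments for all but 30950612 minus, which overlapped in DMSO. Within the highest DMSO window, 42046719 plus and 41996765 minus, chosen after their values were seen, had differences of 1.18 and 1.05 and of 1.14 and 1.15.

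**Figure D4:**
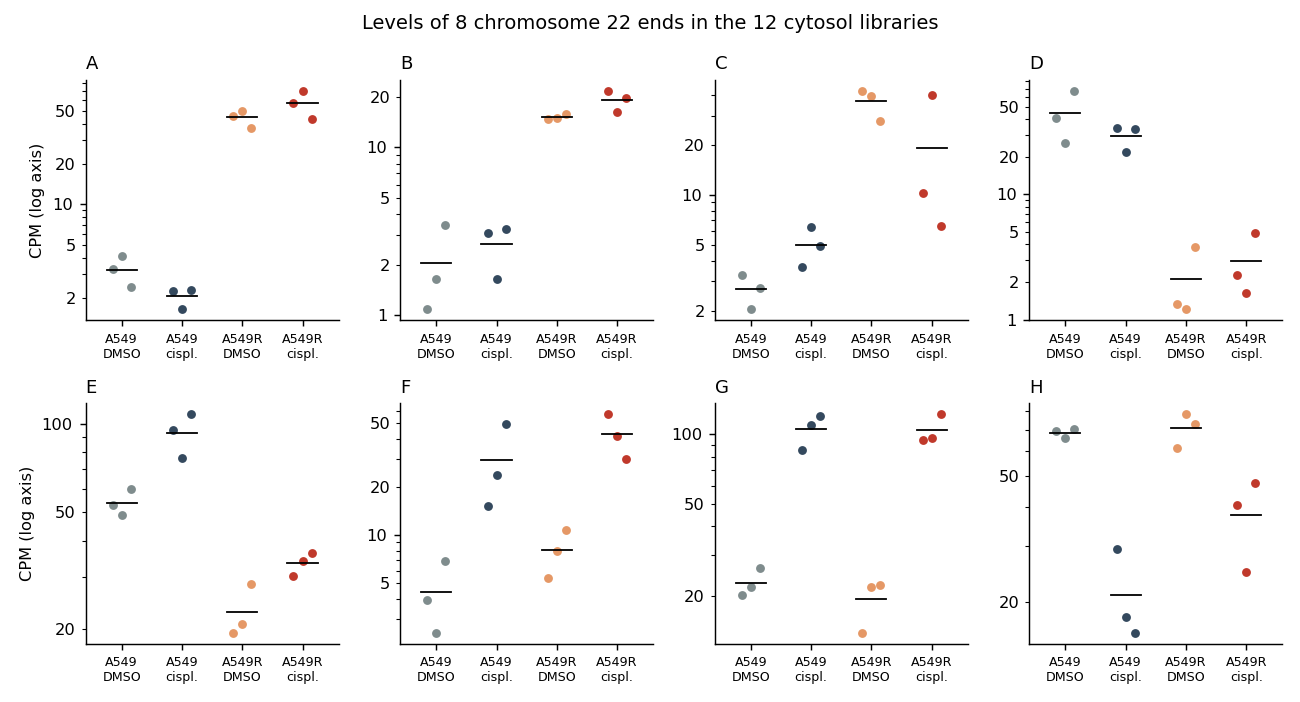
Levels in CPM (log axis) of 8 ends in the 12 cytosol libraries, with points for libraries and bars for group means. A to C are the 3 highest by line difference (31955616 plus, 45828084 plus, 18187401 plus), D and E the 2 lowest (24584844 plus, 35337845 minus), F and G the 2 largest rises with cisplatin in A549 (19710640 plus, 39415680 plus) and H the largest fall (38879439 minus). A to C are higher and D and E lower in every A549R library than in every A549 library of the same treatment, F and G rose with cisplatin in both lines and H fell in A549.

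Only 2 members were lower in A549R without overlap in both treatments. The end at chr22:24584844-24585081 on the plus strand had 40.9, 25.5 and 67.4 CPM in A549 DMSO and 33.7, 21.8 and 33.0 in A549 cisplatin, against 1.34, 1.21 and 3.81 in A549R DMSO and 2.29, 1.62 and 4.95 in A549R cisplatin. Its differences were -4.63 and -3.34, that is 24.8-fold and 10.1-fold lower in A549R. In A549 polysomes it had 99.0 to 130 CPM in the long lists and 102 and 140 CPM in the short ones. The part of the kind of list in its line difference was not tested.

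The other, chr22:35337845-35337874 on the minus strand, is 30 bases wide. It had 52.8, 49.0 and 59.8 CPM in A549 DMSO and 95.1, 76.6 and 108 in A549 cisplatin, against 19.4, 20.9 and 28.6 in A549R DMSO and 30.4, 34.0 and 36.5 in A549R cisplatin. The lines did not overlap and the differences were -1.25 and -1.47. In A549 polysomes it was lower in the long lists (4.87 to 8.71 CPM) than in the short ones (11.5 and 17 CPM), a log2 difference of -1.14, and the part of the kind of list in its line difference was not tested.

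The remaining exceptions were weak and scattered. Of the 30 members below 0 in both treatments, 22 overlapped between the lines in both, 26 lay above -0.5 in at least 1 treatment, and 6 had another exception as the next member on the arm. Every window of 5 Mb held at least 1, and the window from 35 to 40 Mb held 10 of its 83. Of the 9 exceptions that shared a locus with another member, 4 shared it with a member above 0 in both.

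At 1 locus a single library stood out. The pair 46317586 minus and 46316219 minus had 59.8 and 268 CPM in A549 DMSO replicate 3, against 11.5 and 14.5, and 42.0 and 49.4, in the other A549 DMSO libraries. Their DMSO differences were -1.18 and -1.15 and their cisplatin differences -0.39 and -0.20. The other low members by rule, 31022750 plus (-0.70 and -0.97) and 31746986 plus (-1.1 and -0.25), overlapped between the lines in both treatments.

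Ends outside the 377 gave 1 further large exception. On chromosome 22, 80 of the 457 ends listed in all 6 A549 libraries were missing from at least 1 A549R library, and 5 (1.09%) from all 6; on the other chromosomes 2.63% were missing from all 6. These 5, which start at 19495284 plus, 20937414 plus, 32212712 minus, 36919942 minus and 42057335 plus, were listed in 0 of the 15 other libraries, those of A549 polysomes included.

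Of the 80, the raw counts of 2 more did not overlap between the lines, both named after their values were seen. The end at chr22:40271594-40272434 on the plus strand had counts of 303 to 634 over the 6 A549 libraries, against 15, 12 and 0 in A549R DMSO and 15, 0 and 9 in A549R cisplatin. A549 was far above A549R in every library. In A549 polysomes, though, it had only 8, 0 and 11 counts with DMSO and 14, 27 and 14 with cisplatin, so its high level was seen in the A549 cytosol libraries alone among those of this line. The other, 35494823 plus, had 15 to 29 counts in A549 and 0 to 12 in A549R.

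Cisplatin moved few chromosome 22 ends, and to similar extents in the lines. With edgeR's quasi-likelihood test, adjusted over all 16902 ends, 15 members rose and 11 fell in A549 (3.98% and 2.92%), where 3.12% and 4.03% of all ends rose and fell. In A549R 11 rose and 6 fell (2.92% and 1.59%), where 2.32% and 2.2% of all ends did. The members' median change was 0.06 in A549 and 0.07 in A549R. With the replicate number as a block, 40 members changed in A549 and 39 in A549R, and the share of all ends called was not counted in that fit.

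The lines shared 12 of these calls, 8 rises and 4 falls, which is 46.2% of the 26 in A549 and 70.6% of the 17 in A549R. The counts depended on single libraries: there were 9 in A549 without DMSO replicate 2, 12 without cisplatin replicate 2 and 13 without cisplatin replicate 3. In A549R there were 7 and 8 without DMSO replicates 1 and 2, 9 without cisplatin replicate 1 or 2, and 32 without cisplatin replicate 3. How many of all ends were called in these fits was not counted.

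Of the 5 largest rises in each line, the same 4 ends lay together on the plus strand between 39414268 and 39472520. The end at 39414268 had 44.3, 44.3 and 52.6 CPM in A549 DMSO and 176, 203 and 273 in A549 cisplatin, and 38.4, 46.6 and 63.5 in A549R DMSO and 173, 188 and 252 in A549R cisplatin. No cisplatin library overlapped a DMSO library. The rise was 2.21 ± 0.23 (SE) in A549 (edgeR adjusted p = 0.000168) and 2.06 ± 0.23 in A549R (edgeR adjusted p = 0.000433).

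Its neighbours followed: 39415680 rose by 2.21 in A549 (edgeR adjusted p = 0.000143) and 2.45 in A549R (edgeR adjusted p = 9.7e-05), 39449347 by 2.00 and 2.01 (0.0024 and 0.00279) and 39472408 by 2.15 and 2.07 (0.0121 and 0.0252). The same ends stood higher with cisplatin in A549 polysomes, where 39414268 had 43.4, 39.9 and 53.6 CPM with DMSO and 194, 163 and 226 with cisplatin. Unlike most of the arm, these 4 ends had line differences near 0, of 0.06, -0.26, 0.12 and -0.05 in DMSO and -0.09, -0.01, 0.14 and -0.12 in cisplatin.

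They make up part of the low DMSO window. The other 11 ends in it are named here for their place, after the values were seen. The locus of 39257405, 39258387 and 39260152 minus had DMSO differences of -0.01, 0.21 and -0.31 and cisplatin differences of 0.73, 0.78 and 0.46. That of 39708847, 39709185 and 39710118 minus had 0.09, -0.50 and -0.28 with DMSO and 0.21, 0.77 and 0.63 with cisplatin. On the plus strand, 39388472 had -0.79 and -0.35, while 39773683 had 0.32 and 0.94, 39827520 had 0.31 and 0.38, 39911474 had 1.16 and 0.65, and 39911886 had -0.00 and 0.16. In both minus-strand loci the line difference of all 3 ends was larger with cisplatin than with DMSO, a change not called for any of them. A few kb beyond, 39918052 plus had the shift in full, at 326 CPM in A549 and 641 CPM in A549R with DMSO (0.98) and 1.04 in cisplatin.

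Elsewhere on the arm, 19710640 plus rose most, from 3.91, 2.45 and 6.87 to 15.2, 23.7 and 49.7 CPM in A549 and from 5.36, 8 and 10.8 to 57.0, 41.5 and 30.0 CPM in A549R. The changes were 2.79 ± 0.47 (edgeR adjusted p = 0.00394) and 2.48 ± 0.45 (edgeR adjusted p = 0.00698). Its line differences were 0.86 and 0.55.

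Falls were smaller. The end at 38879439 minus had 69.3, 65.9 and 70.5 CPM in A549 DMSO and 29.5, 17.9 and 16.0 in A549 cisplatin, and it fell by 1.70 (edgeR adjusted p = 0.00255). In A549R it had 61.4, 78.3 and 73.0 CPM with DMSO and 40.5, 24.8 and 47.6 with cisplatin, a change of -0.91 that missed the threshold (edgeR adjusted p = 0.0562). The difference between the lines in this response was 0.78 (edgeR unadjusted p = 0.0482) and was not called after adjustment over all ends.

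Near it 38881652 minus fell by 1.53 in A549 (edgeR adjusted p = 0.0146), with -0.85 in A549R (0.149). The 4 falls called in both lines included those of 46757068 minus, by 1.59 and 1.31 (edgeR adjusted p = 0.00587 and 0.0168), and 39130666 minus, by 1.16 and 1.45 (0.0428 and 0.016). The end at 35820138 plus, also called in both, fell by 1.05 in A549 and 0.90 in A549R (edgeR adjusted p = 0.00255 and 0.00668). It kept its line difference throughout, at 0.52 with DMSO and 0.67 with cisplatin. In A549R 29664247 plus fell by 1.17 and 29695594 plus by 1.1 (edgeR adjusted p = 0.0257 and 0.03), with -0.68 and -0.58 in A549, which missed the threshold.

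The end at 35789479 plus was called in A549 and not in A549R. It had 150, 218 and 222 CPM in A549 DMSO and 76.3, 84.2 and 95.4 in A549 cisplatin, and fell by 1.21 (edgeR adjusted p = 0.0256). In A549R it had 50.0, 79.1 and 138 CPM with DMSO and 68.4, 78.8 and 105 with cisplatin, a change of -0.07 (edgeR adjusted p = 0.921). With DMSO every A549R library was below every A549 library (-1.16), and with cisplatin the lines overlapped (-0.02). The response differed between the lines by 1.14 (edgeR unadjusted p = 0.0158), which was not called after adjustment over all ends.

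**Figure D5:**
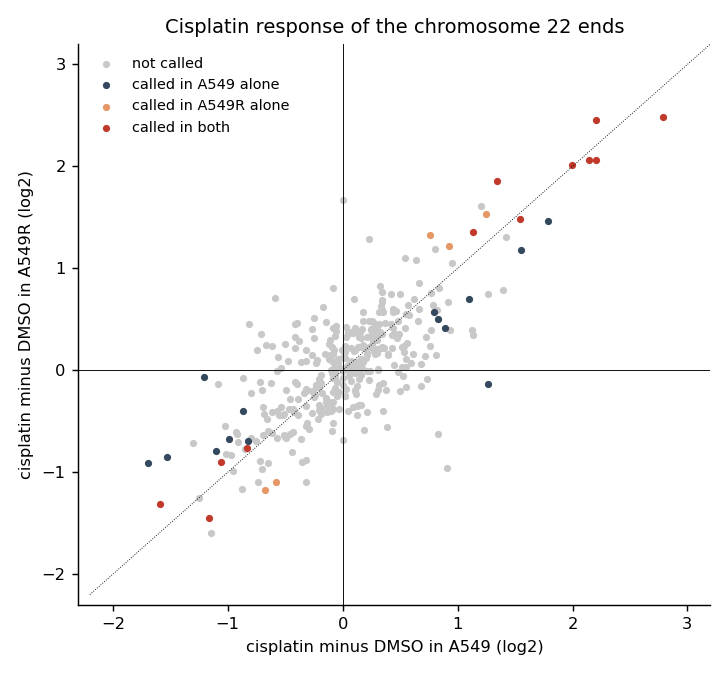
Change with cisplatin (log2) of the 377 chromosome 22 ends in A549 (horizontal axis) and A549R (vertical axis), coloured by where the edgeR test called them. The dotted line marks equal change, and the 12 ends called in both lines lie on the same side of 0 in each.

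The line difference of a member was not found to change with cisplatin. The test of the difference between the responses called 0 of 377 members, with 0 of 16902 called among all ends (0%). At an unadjusted p under 0.05, edgeR gave 9 members (2.39%) and 320 of all ends (1.89%). The median difference between the responses was 0.01 over the members and 0.02 over the other ends.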

How the data were processed

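Read counts per peak of RNA 3′ ends were deposited by the authors without normalization, 1 list per library, as whole-number counts of at least 5 per the files' values. Tools in the submitters' processing notes are Bowtie2 (2.2.5), bedtools (2.17.0) and SAMtools (1.1). The build given there is the mouse build mm9. Positions were read as human hg19, because chromosome 22 is present and its last peak ends at 51239739. Neither labels nor lists say how peaks were called and filtered.

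Peaks of the 12 cytosol lists overlapping by 1 base on a strand were merged and their counts summed per library. The 16902 peaks listed in all 12 were fitted with edgeR 4.0.16 (R 4.3.3; TMM scaling, quasi-likelihood, 4 group means in 1 fit, Benjamini-Hochberg over all peaks, threshold 0.05). CPM are scaled counts in the cytosol libraries and unscaled shares of the total over the same peaks in the others. An SE is the log2 change divided by the root of its F. The fit was tested on simulated data. An end listed in every library can only be one that neither line lacks. Alternatives covered scaling, filters, merging, DESeq2 1.42.0, strands, windows and left-out replicates. Same-numbered libraries deviated together over all peaks. Their correlations were 0.31 to 0.48 between A549 DMSO and cisplatin and 0.14 to 0.30 in A549R. Across the lines they ranged from -0.01 to 0.23. The replicate block was therefore read as a pairing, taken from the labels' numbers. The p-values given for single ends, and the calls shared between lines, are from the fit without this block.

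Members, lists and tests were chosen with earlier results of these data known. Named were the 8 highest and 8 lowest members by mean line difference, those lower without overlap in both treatments, the first and last 3, those beside a step, and the 5 largest rises and falls called per line. Where nothing was listed for an end in a library outside the cytosol, its count was taken as 0. Count intervals are not given, since PCR reads without molecular identifiers are not independent molecules.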

Additional observations from a re-analysis of the deposited data

Results flagged for a closer look

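The end at 39260152 minus moved in opposite directions in the lines. In A549 every cisplatin library (41.0, 43.0 and 32 CPM) was below every DMSO library (43.5, 47.7 and 47.4 CPM), and in A549R every cisplatin library (53.3, 56.1 and 50.1 CPM) was above every DMSO library (41.5, 47.8 and 20.3 CPM). The response in A549R minus that in A549 was 0.76 on the log2 scale, with an unadjusted p of 0.0446 and an adjusted p of 1.00 by edgeR, so the difference did not pass the correction.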

How the results depend on the processing

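The line shift and its sign are relative to the scaling. With the library size taken from all listed counts, the members' medians were -0.19 in DMSO and -0.16 in cisplatin, beside -0.65 and -0.62 for the other ends, 19 and 14 members were higher without overlap, the lowest running medians were -0.65 and -0.45, and 17618400 minus stood at -0.060 in cisplatin. Members minus other ends ranged over all 21 settings from 0.41 to 0.50 (DMSO) and from 0.43 to 0.50 (cisplatin). With no scaling beyond totals the DMSO shift was 0.52 and its lowest running median 0.067. With ends of a mean count of at least 5 in at least 1 short list, the calls were 16 in A549, 9 in A549R and 1 for the difference in response, and the lowest running medians -0.25 and -0.0074. That median was -0.26 and 0.082 over 9 members, 0.086 in DMSO over 25, and 0.12 and 0.086 in DMSO on the plus and minus strand alone; among bins of 2 Mb with 5 or more members the lowest in DMSO was 0.23 (2 bins of fewer members were below 0). DESeq2 called 30 members in A549R. The share of all ends called or not overlapping was counted in the main fit alone, not in the alternatives.

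In the paired fit with the replicate block, 40 members were called in A549 and 39 in A549R, the shifts were 0.44 and 0.46, and the difference in response had 0 calls.

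Leaving out single libraries gave DMSO shifts of 0.40 to 0.46 and cisplatin shifts of 0.42 to 0.49. Members higher without overlap numbered 140 to 213 and 150 to 203. Fewer values must then be separated, so these numbers tend to rise by construction. There were 9 to 33 calls in A549, 7 to 32 in A549R and 0 for the difference in response. The lowest running medians were -0.070 to 0.073 and 0.012 to 0.18. Among the named ends' line differences over all settings, 409 of 439 values in DMSO and 414 of 439 in cisplatin moved by less than their SE in the main fit. In cisplatin 1 value changed sign for an end whose lines had not overlapped. Of the named cisplatin changes, 21 of 210 values in A549 and 24 of 210 in A549R were no longer called. The causes were not tested. Depth limits low ends: a count of 5 was the least that a list could hold.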

Other observations

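In H358 whole cells treated with cisplatin at the same dose, the ends raised most in A549 did not stand above DMSO. The end at 39414268 plus had 27.3, 25.1 and 23.8 CPM with DMSO, 18.2, 10.3 and 17 with cisplatin and 28.5, 17 and 31.8 with oxaliplatin. The end at 39415680 plus had 11.6, 6.89 and 10.1 CPM with DMSO and 8.97, 3.29 and 6.53 with cisplatin. The end at 38879439 minus, which fell in A549, had 65.2, 63.9 and 40.6 CPM with DMSO, 21.6, 12.8 and 12.6 with cisplatin and 31.0, 27.7 and 25.9 with oxaliplatin. The end at 35789479 plus went the other way in H358, from 8.34, 5.42 and 8.97 CPM with DMSO to 25.2, 13.6 and 19.6 with cisplatin, in which no libraries overlapped. Ends on the other chromosomes had medians of -0.32, -0.23 and -0.36 in H358 with DMSO, on the log2 scale relative to A549 cytosol DMSO. With cisplatin their medians were -0.57, -0.73 and -0.53, and the CPM above were not adjusted for this. The extract differs between H358 and A549, and these differences between lines were not tested.

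The lowest member, 24584844 plus, was also low in H358, with 3.76, 1.31 and 3.08 CPM with DMSO and 0 counts in each of the 3 cisplatin libraries. The highest, 31955616 plus, had 62.9, 55.5 and 90.0 CPM in H358 with DMSO and 39.5, 55.6 and 42.2 with cisplatin, and was listed in none of the 3 oxaliplatin libraries, whose lists were of the short kind (39.9% to 42.3% of their peak numbers), while the other H358 lists were long. This end was also at 0 and 1.05 CPM in the short A549 polysome lists, and the part of the kind of list was not tested.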
